A study of Homo sapiens with 18 samples.

Results

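The genes described here encode the nuclear part of the mitochondrial respiratory chain. They were taken by name from the deposited tables, as every record of the biotype protein_coding whose symbol begins with NDUFA, NDUFB, NDUFC, NDUFS, NDUFV, UQCR, COX4, COX5, COX6, COX7 or COX8, together with SDHA, SDHB, SDHC and SDHD and names that begin with them. This gave 83 of 58302 gene records and 82 symbols, since 2 records carry the symbol SDHD. Of the 83 records, 37 belong to complex I, 5 to complex II, 9 to complex III and 19 to complex IV. A further 12 are assembly factors, whose names begin with NDUFAF or SDHAF and which build complexes I and II without staying in them, and 1 is the read-through gene NDUFC2-KCTD14. NDUFA4 and NDUFA4L2 were counted under complex IV, because NDUFA4 is a subunit of cytochrome c oxidase.

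The respiratory chain passes electrons from NADH (complex I) and succinate (complex II) through ubiquinone to complex III, and from there through cytochrome c to complex IV, which reduces oxygen. Complexes I, III and IV pump protons across the inner mitochondrial membrane, and complex V uses the gradient to make ATP. Most subunits are encoded in the nucleus and imported, while a small set in complexes I, III, IV and V is encoded by mitochondrial DNA, and complex II is encoded by nuclear genes alone. Promoters of the nuclear genes are known for binding NRF1, the ETS factor GABP, YY1 and the receptor ESRRA.

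RNA was sequenced from 3 human lung cancer cell lines, each carrying either a lentiviral shRNA against the kinase SYK (shSYK) or its negative control (nc). There were 18 libraries, 3 for each of 6 groups. EBC-1 carries a MET amplification, and PC-9 and HCC827 carry an EGFR exon 19 deletion. A single shRNA clone was used against SYK in all lines, so an effect of SYK loss and any other effect of that clone cannot be told apart, and nothing in the labels says whether the libraries of a group came from separate cultures. The p-values therefore measure the spread between these libraries, which may be technical. Each line has a table of its own with values in FPKM (reads scaled by the length of the gene model and by a library total), and shSYK was compared with nc within a line by limma on log2(FPKM + 1), over genes whose FPKM averaged 1 or more in the line. A gene was counted as changed at a Benjamini-Hochberg adjusted p under 0.05 over all genes tested in that line.

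Between 7920099 and 15729103 reads per library lay on genes, as recovered from the tables. The FPKM of SYK in shSYK cells was 52.3%, 32.1% and 32.9% of the nc level in EBC-1, PC-9 and HCC827. In each line all shSYK libraries lay under the nc libraries, and the two-sided exact permutation p was 0.1, which is the minimum for 3 against 3. The epithelial markers EPCAM, CDH1, KRT8, KRT18 and KRT19 passed the expression filter in each line, though CDH1 and KRT19 were lower in shSYK cells of EBC-1 and HCC827 and KRT18 in EBC-1, and their part in the results was not tested. The KRT19 call in EBC-1 was lost in 14 of 17 alternatives, with a log2 change of 0.083 at the highest. The leukocyte markers PTPRC, CD3E and LYZ summed to at most 0.339 FPKM in any library and 4 fibroblast markers to at most 8.37. In PC-9, the sum of all FPKM values was 342216, 274907 and 301347 in nc replicates 1, 2 and 3. In shSYK libraries of PC-9 it ran from 306921 to 316917. The medians and the genes described for PC-9 are therefore also given without nc replicate 1, and the medians without nc replicate 2.

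The promoters of 6 genes are shown because the results below turn on them. SDHD was past the threshold upward in EBC-1 and HCC827 while SDHB of the same complex was not, NDUFB4 differed between lines, NDUFS7 had the largest fall of complex I in EBC-1, and COX7B and COX7B2 are paralogs of which the latter was read in PC-9 alone. Each runs from 250 bases before to 50 bases after the transcription start (RefSeq, GRCh38.p14), 5′ to 3′ on the strand of the gene. Capitals mark matches, read on both strands, to any of 5 motifs. The centre of the NRF1 motif was searched as GCATGCGC. The motif of ETS factors such as GABP was searched as CCGGAAG, and that of the factor YY1 as ATGGCGG. The monomer site of the receptor ESRRA was searched as AAGGTCA, and the TATA box of classical promoters as TATAAA. Matches to the SP1 motif, searched as GGGCGG, were counted too and left in lower case. SDHD lies at chr11:112086623-112086922 (plus strand), SDHB at chr1:17053983-17054282 (minus), NDUFB4 at chr3:120596086-120596385 (plus), NDUFS7 at chr19:1383657-1383956 (plus), COX7B at chrX:77899218-77899517 (plus) and COX7B2 at chr4:46909196-46909495 (minus).
SDHD: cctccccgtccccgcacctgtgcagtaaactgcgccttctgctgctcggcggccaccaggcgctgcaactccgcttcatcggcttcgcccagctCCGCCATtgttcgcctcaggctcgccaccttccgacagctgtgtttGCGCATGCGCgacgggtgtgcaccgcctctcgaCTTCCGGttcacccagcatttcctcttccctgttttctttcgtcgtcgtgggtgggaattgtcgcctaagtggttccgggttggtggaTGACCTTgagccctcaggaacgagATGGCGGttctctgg
SDHB: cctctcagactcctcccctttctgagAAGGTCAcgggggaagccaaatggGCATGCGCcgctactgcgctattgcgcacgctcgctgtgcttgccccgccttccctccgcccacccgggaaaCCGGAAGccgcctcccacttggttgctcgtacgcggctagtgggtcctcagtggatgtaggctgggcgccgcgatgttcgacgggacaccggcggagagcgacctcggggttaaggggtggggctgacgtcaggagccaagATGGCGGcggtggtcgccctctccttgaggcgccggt
NDUFB4: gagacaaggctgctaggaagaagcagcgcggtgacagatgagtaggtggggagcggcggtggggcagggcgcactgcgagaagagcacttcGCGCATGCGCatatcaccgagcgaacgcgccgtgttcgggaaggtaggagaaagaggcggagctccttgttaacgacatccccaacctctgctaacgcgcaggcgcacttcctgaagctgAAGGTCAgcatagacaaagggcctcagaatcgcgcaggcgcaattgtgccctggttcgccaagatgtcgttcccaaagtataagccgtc
NDUFS7: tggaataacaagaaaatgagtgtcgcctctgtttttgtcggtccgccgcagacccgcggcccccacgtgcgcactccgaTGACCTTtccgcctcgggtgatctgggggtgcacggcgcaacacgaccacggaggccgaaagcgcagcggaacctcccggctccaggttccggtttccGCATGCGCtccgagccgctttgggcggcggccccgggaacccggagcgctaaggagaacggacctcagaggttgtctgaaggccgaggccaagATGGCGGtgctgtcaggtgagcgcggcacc
COX7B: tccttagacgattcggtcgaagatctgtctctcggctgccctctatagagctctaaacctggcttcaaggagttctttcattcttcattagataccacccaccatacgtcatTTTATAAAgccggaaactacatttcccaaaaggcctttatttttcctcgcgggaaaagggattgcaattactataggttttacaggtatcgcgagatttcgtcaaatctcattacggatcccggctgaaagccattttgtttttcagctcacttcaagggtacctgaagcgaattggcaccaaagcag
COX7B2: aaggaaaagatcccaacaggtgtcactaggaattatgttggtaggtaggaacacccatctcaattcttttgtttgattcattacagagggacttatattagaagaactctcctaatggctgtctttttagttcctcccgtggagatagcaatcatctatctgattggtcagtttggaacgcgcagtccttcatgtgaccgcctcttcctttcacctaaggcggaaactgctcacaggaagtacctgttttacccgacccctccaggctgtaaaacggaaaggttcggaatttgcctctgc

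The SDHD promoter held 2 NRF1 matches that overlap as the forward and reverse reading of a single site, 1 ETS match, 2 YY1 matches and 1 ESRRA match. SDHB held 1 match to each of NRF1, ETS, YY1, ESRRA and SP1. NDUFB4 held 2 overlapping NRF1 matches and 1 ESRRA match, and NDUFS7 held 1 match each to NRF1, YY1, ESRRA and SP1. COX7B held 2 overlapping TATA matches, and COX7B2 held none of the 6 motifs. Genes that rose, that fell and that stayed under the threshold are all found among the carriers of these matches.

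Over the genes with a promoter in the RefSeq table (68 of the 82 symbols), 12 held the NRF1 letters (17.6%), 18 the ETS letters (26.5%), 21 the YY1 letters (30.9%) and 7 the ESRRA letters (10.3%). The shares over all 35116 promoters of that table were 3.05%, 10.3%, 5.55% and 3.92%. Over 9175 other protein-coding genes that passed the filter in any line they were 5.49%, 19.6%, 10.6% and 2.31%. YY1 letters were found in 13 of 32 complex I promoters (40.6%) and in 1 of 14 of complex IV (7.14%), and NRF1 letters in 5 and 2 of them. SP1 letters were found in 57.4% of the respiratory promoters, 44.95% of all promoters and 71.5% of the other tested genes, and TATA letters in 8.82%, 11.5% and 5.22%. The motif letters are short and do not show that a factor binds. The YY1 letters begin with ATG, and the 50 bases after the transcription start are included. Matches there, as at the ends of SDHD, SDHB and NDUFS7, lie in transcribed sequence and were not counted apart.

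Of the 83 records, the expression filter kept 74, 73 and 71 in EBC-1, PC-9 and HCC827, and 76 in any line. Those that passed in no line were NDUFC2-KCTD14, the second SDHD record, whose exon bases are all shared with other genes, NDUFA7 of complex I, and COX4I2, COX6A2, COX6B2 and COX8C of complex IV. With the lengths of the tables, the median FPKM in nc cells was lowest for complex II and highest for complex IV in each line. In EBC-1 it was 15.9 for complex I, 5.61 for complex II, 20.7 for complex III and 29.97 for complex IV. In PC-9 the medians were 29.5, 21.95, 30.04 and 57.6, and in HCC827 33.02, 22.8, 29.2 and 75.4. The tables of the lines were normalized separately, so these levels are set side by side without a test. COX8A, a small subunit of complex IV, was the highest of that complex in the 3 lines, with a mean nc FPKM of 245, 254 and 313 in EBC-1, PC-9 and HCC827.

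The highest complex I genes were NDUFS6 in EBC-1 (mean nc FPKM 199) and NDUFS5 in PC-9 (673.6) and HCC827 (245), both small accessory or peripheral subunits. NDUFS5 was 127 in EBC-1. UQCRH, the hinge protein of complex III, led that complex in each line, with 77.9, 290.5 and 245 FPKM in EBC-1, PC-9 and HCC827. The lowest tested complex I gene was NDUFV2 (0.555 FPKM, EBC-1), NDUFA13 (1.58, PC-9) or NDUFA9 (2.57, HCC827). NDUFV2 and NDUFA13 share 28.4% and 21.0% of their exon bases with another gene on the same strand, and how the authors counted shared reads is not stated, so these low levels are uncertain.

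FPKM here depends on the gene length used. The length in the tables exceeds that of the canonical transcript (GENCODE v44) by a median ratio of 2.24, and by 10.8 for SDHC, 9.94 for NDUFS7 and 7.90 for UQCRHL. With canonical lengths, an alternative chosen after seeing the data, COX4I1 became the highest complex IV gene in EBC-1 (498 FPKM) and COX7C in PC-9 (619) and HCC827 (695), SDHD replaced SDHC as the lowest subunit of complex II in the 3 lines, and NDUFA9 was the lowest of complex I in each. The order of the complex medians also changed, since complex II (81.8 and 85.8 FPKM in PC-9 and HCC827) then lay above complex I (73.1 and 73.7) and, in HCC827, above complex III (43.03). Exon bases are shared with another gene for 41 of the 83 records, over 20% of the bases for 16, and 35 have named pseudogenes in the tables, up to 17 for COX6C. The same length enters shSYK and nc values of a gene, but through the pseudocount of 1 and the filter it also bears on the size of a log2 change, its test and which genes were tested. NDUFV2 in EBC-1, for example, had a shSYK level of 309.7% of nc and a log2 change of 0.80 on the scale used.

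Changes are given as log2 fold changes of FPKM + 1, shSYK minus nc, with SE for their standard error. In EBC-1, 20 of the 74 tested genes rose in shSYK cells and 9 fell. Over all 12430 genes tested the shares were 23.1% higher and 21.6% lower, so the share of risers, 27.0%, was near the background and that of fallers, 12.2%, was below it. The median log2 fold change was 0.081 against 0.009 over all genes tested. Over 5814 genes in the same span of length and level (10th to 90th percentile of the respiratory genes, 1009 to 7438 bases and 2.77 to 77.1 FPKM), 26.1% rose, 25.2% fell and the median was -0.005. The balance depends on the scaling of the libraries. The counts became 33 higher and 1 lower after rescaling to an equal sum (TPM), and 31 and 4 with limma-voom on the recovered reads, but TPM rescaling also moved the median of all genes to 0.12 and limma-voom to 0.10.

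By complex, 10 of 35 complex I genes rose and 6 fell in EBC-1 (median 0.12), 1 of 4 complex II genes rose (median -0.039), 4 of 9 complex III genes rose and 1 fell (median 0.17), and 1 of 14 complex IV genes rose and 1 fell (median 0.007). Among assembly factors 4 of 12 rose and 1 fell (median 0.17). The plot of log2 fold changes by complex shows these values beside those of the other lines.

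**Figure D1:**
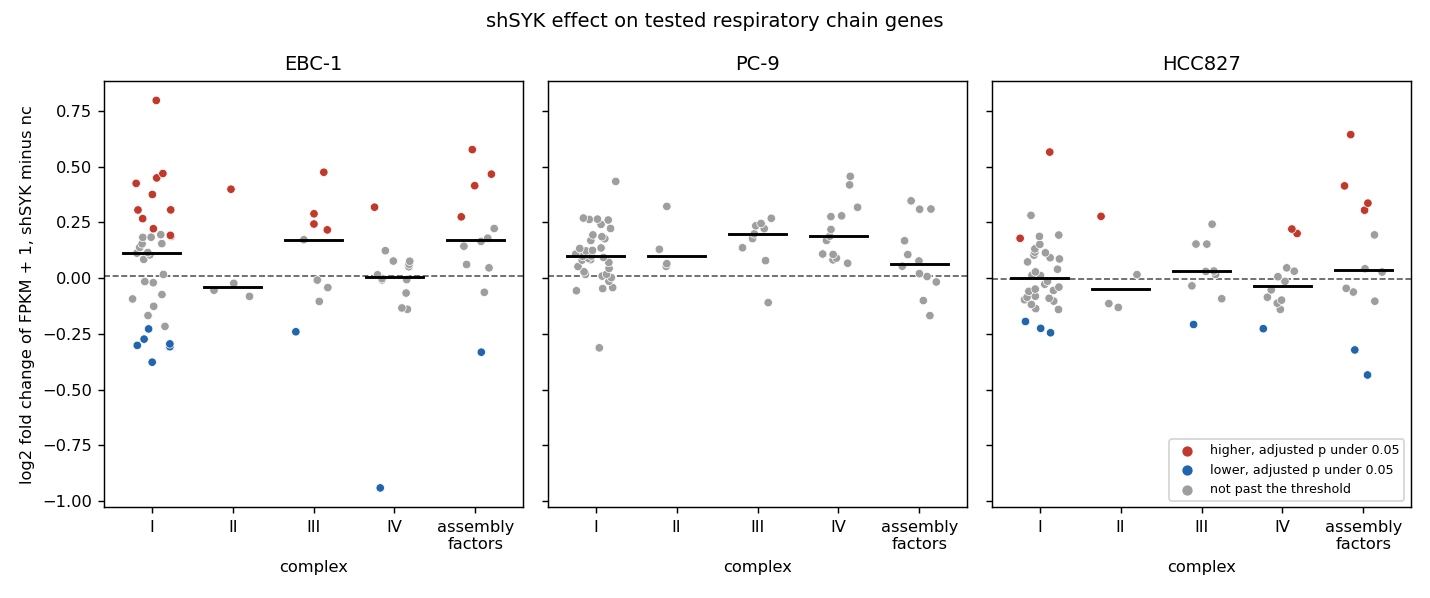
Log2 fold change of FPKM + 1 (shSYK minus nc, vertical axis) for each tested respiratory chain gene, by complex (horizontal axis) and cell line (panels). Each point is a gene, black bars are medians over a complex, the dashed line is the median of all genes tested, red and blue points are past the adjusted p threshold upward and downward; EBC-1 has 20 red and 9 blue points, HCC827 9 and 7, and PC-9 none.

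NDUFB4, an accessory subunit in the membrane arm of complex I, had the largest rise of its complex in EBC-1 among genes averaging 5 FPKM or more. Its FPKM in EBC-1 was 43.4, 36.2 and 42.1 in the nc libraries and 56.4, 54.6 and 58.3 in the shSYK libraries. All shSYK libraries lay above all nc libraries, with a log2 change of 0.47 (SE 0.082, adjusted p = 0.00361 by limma), and the call held in 17 of 17 alternatives. Other accessory subunits that rose included NDUFA6 (57.9 ± 4.37 to 78.0 ± 2.27 FPKM, SD, n = 3), NDUFA5 (2.43 ± 0.332 to 3.67 ± 0.067) and NDUFB3 (19.2 ± 2.32 to 25.1 ± 0.937). NDUFS4 (20.4 ± 2.45 to 25.3 ± 1.41) and NDUFS5 (127 ± 2.32 to 149 ± 1.90) rose as well. NDUFAB1, the mitochondrial acyl carrier protein, rose from 30.2 ± 1.15 to 34.6 ± 1.70. NDUFB2 and NDUFC2 were also past the threshold upward, with calls lost in 5 and 2 of 17 alternatives. The calls of NDUFAB1, NDUFS4, NDUFS5 and NDUFB3 were lost in 10, 8, 5 and 2 of 17 alternatives, and NDUFA5 turned to -0.053 after removal of the length and GC trends. NDUFV2, which holds an iron-sulphur cluster of the NADH-oxidizing part, rose from 0.555 ± 0.150 to 1.72 ± 0.451 FPKM, on 15 to 82 reads per library and with the shared exon bases noted above.

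The complex I genes that fell in EBC-1 include core subunits of the electron path. NDUFS7, which carries the last iron-sulphur cluster before ubiquinone, had 8.23, 6.71 and 7.93 FPKM in the EBC-1 nc libraries and 5.93, 6.17 and 4.85 in the shSYK libraries. The groups did not overlap, and the log2 fold change was -0.38 (SE 0.11, adjusted p = 0.0241 by limma). On the opposite strand, other genes cover 51.4% of its exon bases. NDUFV1, which binds NADH and the flavin, went from 50.6 ± 4.08 to 41.0 ± 2.78 FPKM, and NDUFS8, another iron-sulphur subunit, from 35.5 ± 4.07 to 28.6 ± 2.72, with overlapping groups for NDUFS8. The accessory genes NDUFA2, NDUFA11 and NDUFC1 also fell. After rescaling to an equal sum, none of these 6 falls in EBC-1 stayed past the threshold.

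In complex III of EBC-1, UQCRB, a small subunit at the ubiquinone side, had 10.004, 10.97 and 9.52 FPKM in nc and 14.7, 13.9 and 14.9 in shSYK libraries. The shSYK libraries were above the nc libraries, with a log2 change of 0.48 (SE 0.074, adjusted p = 0.0023 by limma). UQCRFS1, the Rieske iron-sulphur protein, rose from 20.7 ± 0.873 to 24.7 ± 1.73, UQCRC2, a core protein, from 15.4 ± 0.344 to 18.05 ± 0.478, and the small subunit UQCR10 from 25.9 ± 0.695 to 31.9 ± 0.985. UQCRC1, the other core protein, was 44.6, 41.5 and 49.9 in nc and 39.8, 37.8 and 36.7 in shSYK libraries. It was lower in each shSYK library, with a log2 change of -0.24 (SE 0.082, adjusted p = 0.0461 by limma), a call lost in 14 of 17 alternatives. So the 2 core proteins of complex III were past the threshold in opposite directions in EBC-1, and removal of the length and GC trends turned the sign of both, UQCRC1 to 0.0402 and UQCRC2 to -0.093. The calls of UQCRC2 and UQCRFS1 were each lost in 7 of 17 alternatives. That of UQCRB was lost in 1 of 17, after removal of the length and GC trends, and that of UQCR10 held in all 17.

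In complex IV of EBC-1, the gene that rose was COX7B, a small subunit encoded on the X chromosome. Its FPKM was 11.1, 10.7 and 9.11 in nc and 12.6, 12.7 and 13.9 in shSYK libraries, without overlap, and the log2 fold change was 0.32 (SE 0.087, adjusted p = 0.0215 by limma). NDUFA4L2, a paralog of NDUFA4 known to be induced by hypoxia, had 5.48, 4.82 and 4.17 FPKM in nc and 1.86, 2.35 and 1.89 in shSYK libraries of EBC-1. Its shSYK level was 42.1% of the nc level (log2 change -0.94, SE 0.11, adjusted p = 0.000813 by limma), the largest fall of any respiratory gene tested in the 3 lines, and the call held in all 16 alternatives in which it was tested. NDUFA4 itself was 19.8 ± 1.25 in nc and 20.04 ± 0.364 in shSYK cells.

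Among the assembly factors of EBC-1, NDUFAF4 rose from 2.75 ± 0.091 to 4.601 ± 0.421 FPKM, SDHAF2, which attaches the flavin to SDHA, from 3.08 ± 0.226 to 4.65 ± 0.396, NDUFAF2 from 15.4 ± 0.246 to 20.9 ± 1.13, and SDHAF3, which helps to insert iron-sulphur clusters into SDHB, from 15.7 ± 0.786 to 19.2 ± 0.576. NDUFAF3 fell from 23.2 ± 2.11 to 18.3 ± 1.68. These were 4 rises and 1 fall among 12 assembly factors, each below a log2 change of 0.6 in size. The call of NDUFAF3 was lost in 9 of 17 alternatives. Those of NDUFAF2 and SDHAF3 were lost in 1 of 17, after removal of the length and GC trends. NDUFAF4 and SDHAF2 held in all 16 alternatives in which they were tested.

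In HCC827, 9 of the 71 tested genes rose in shSYK cells and 7 fell. Over all 11999 genes tested, 17.2% rose and 20.7% fell, and the respiratory genes, at 12.7% and 9.86%, were below both shares. Their median log2 fold change was 0.012 against -0.005 over all genes, and -0.057 over 5379 genes in the same span of length and level, of which 18.2% rose and 28.6% fell. The split was 13 higher and 4 lower after rescaling to an equal sum, 14 and 4 with quantile normalization and 20 and 4 with limma-voom, which moved the median of all genes to 0.046, 0.012 and 0.064, while it was 4 and 6 after removal of the trends on length and GC content. By complex, 2 of 34 complex I genes rose and 3 fell, 1 of 4 complex II genes rose, 1 of 9 complex III genes fell, 2 of 12 complex IV genes rose and 1 fell, and 4 of 12 assembly factors rose and 2 fell. The complex medians lay between -0.049 (complex II) and 0.03 (complex III).

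NDUFB3, an accessory subunit of the membrane arm, had the largest rise of complex I in HCC827. Its FPKM in HCC827 was 37.2, 35.9 and 32.1 in nc and 47.4, 54.7 and 55.3 in shSYK libraries. The groups did not overlap, and the log2 fold change was 0.57 (SE 0.082, adjusted p = 0.00214 by limma), a call that held in 17 of 17 alternatives. NDUFS8 had 33.7, 31.0 and 35.4 FPKM in nc and 28.5, 28.0 and 27.3 in shSYK libraries of HCC827. It was lower in each shSYK library, with a log2 change of -0.24 (SE 0.061, adjusted p = 0.0176 by limma). NDUFV1 fell from 78.9 ± 4.48 to 68.8 ± 0.579 and NDUFS7 from 3.98 ± 0.04 to 3.27 ± 0.163 FPKM, and neither call held after rescaling to an equal sum.

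Within complexes III and IV of HCC827, UQCRC1 had 68.2, 60.0 and 70.2 FPKM in nc and 56.7, 58.6 and 55.7 in shSYK libraries. These did not overlap (log2 change -0.21, SE 0.069, adjusted p = 0.0479 by limma), and the call was lost in 14 of 17 alternatives. COX6C rose from 20.6 ± 1.14 to 24.2 ± 1.81 FPKM (log2 fold change 0.22, limma adjusted p = 0.0447), and COX7B from 41.7 ± 1.76 to 48.1 ± 3.39 (0.20, limma adjusted p = 0.0483), and each of these calls was lost in 10 of 17 alternatives. COX7A2, the widely expressed form of subunit 7A, was 84.4, 81.6 and 89.0 in nc and 68.5, 79.1 and 70.1 in shSYK libraries. It was lower in each shSYK library, with a log2 change of -0.23 (SE 0.07, adjusted p = 0.0371 by limma), and the call was lost in 10 of 17 alternatives.

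Among assembly factors of HCC827, NDUFAF8, which works in complex I assembly, had the largest change. It had 48.1, 42.9 and 43.0 FPKM in nc and 69.0, 74.7 and 67.3 in shSYK libraries. All shSYK libraries were above the nc libraries, with a log2 change of 0.64 (SE 0.067, adjusted p = 0.000601 by limma). NDUFAF1, an early complex I assembly factor, was 11.6, 10.7 and 12.8 in nc and 8.22, 8.77 and 8.08 in shSYK libraries, again without overlap (log2 change -0.43, SE 0.074, adjusted p = 0.00416 by limma). SDHAF3 rose from 7.90 ± 0.507 to 10.9 ± 0.866 FPKM, NDUFAF2 from 59.4 ± 5.9997 to 75.0 ± 1.77 and NDUFAF6 from 2.63 ± 0.170 to 3.50 ± 0.379, and SDHAF1 fell from 20.2 ± 0.299 to 15.97 ± 0.743. The calls for NDUFAF8, NDUFAF1 and SDHAF3 held in 17 of 17 alternatives.

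**Figure D2:**
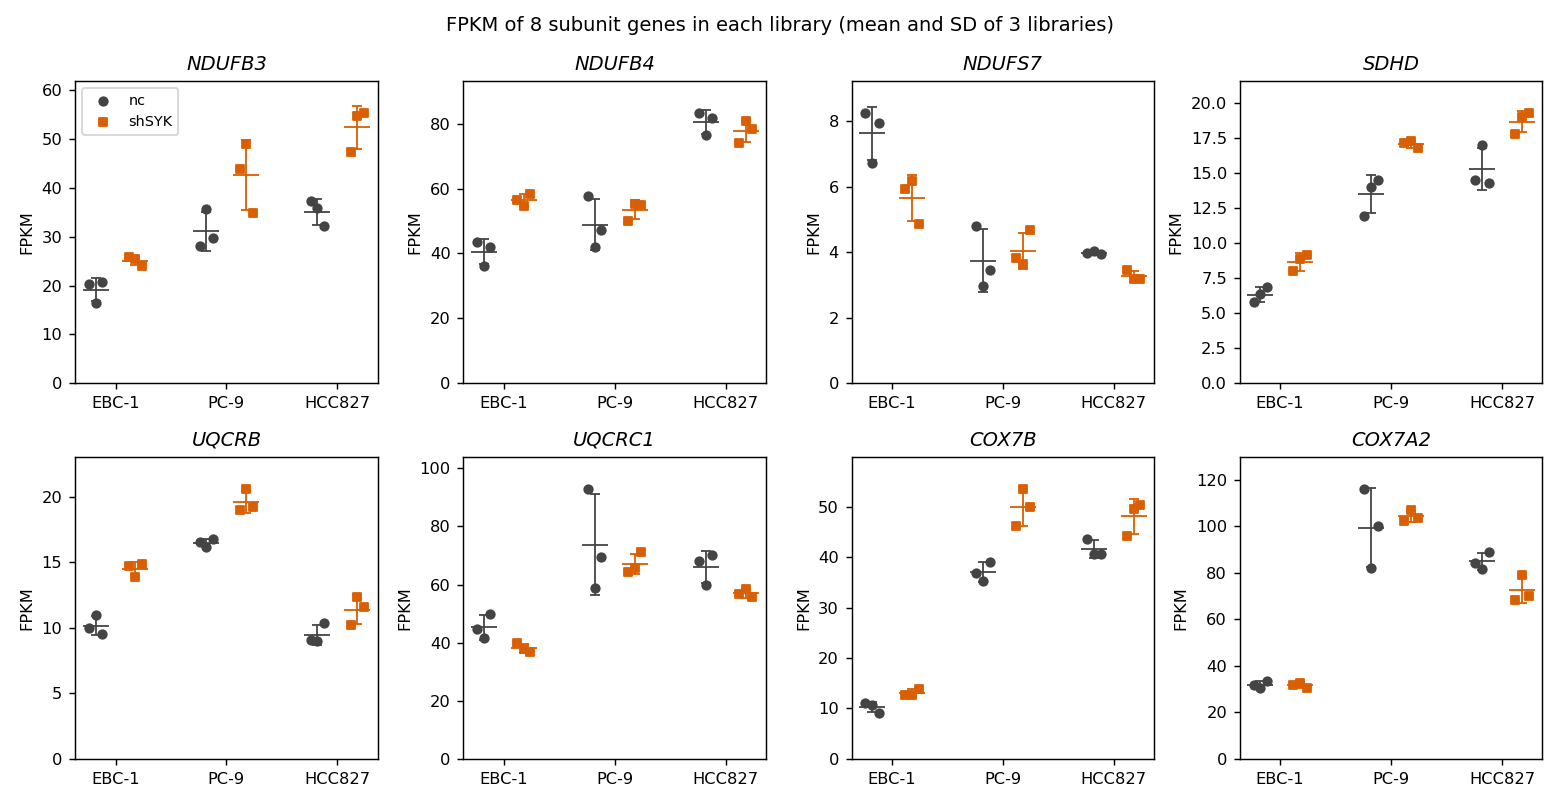
FPKM (vertical axis, from 0) of 8 subunit genes in each of the 18 libraries, by cell line (horizontal axis). Circles are nc and squares shSYK libraries, horizontal marks are means of 3 libraries and bars their SD; NDUFB3, SDHD and COX7B lay higher in shSYK cells of EBC-1 and HCC827 without overlap, while NDUFB4 was higher in EBC-1 and overlapped in PC-9 and HCC827.

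In PC-9, none of the 73 tested genes passed the threshold, against 0.678% of 12089 genes that rose and 1.41% that fell. At an unadjusted p under 0.05, 10 respiratory genes were past it, all with higher values in shSYK cells. Over all genes 15.6% were past it, 6.92% with higher values. A fit by limma-voom of the recovered reads also called 0 respiratory genes. The log2 fold change was above 0 for 64 of 73 genes, with a median of 0.11 against 0.009 over all genes tested and 0.014 over 5852 genes in the same span of length and level. Without nc replicate 1 the median of the respiratory genes was 0.22 and without nc replicate 2 it was 0.039. Every shSYK library was above every nc library for 15 of the 73 genes, against 11.4% of all genes, and every one was below for 1 (NDUFA13), against 12.3%. In a single fit of the 18 libraries, 11 respiratory genes were past the threshold upward and none downward, against 5.46% and 7.04% of all genes.

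The medians in PC-9 were 0.098 for complex I, 0.097 for complex II, 0.20 for complex III, 0.19 for complex IV and 0.066 for assembly factors. In the same order they were 0.20, 0.19, 0.25, 0.29 and 0.086 without nc replicate 1, and 0.0027, 0.024, 0.11, 0.061 and -0.0037 without nc replicate 2. All 13 complex IV genes tested had a log2 fold change above 0. The summed FPKM of complex I ran from 1859 to 2474 over the nc libraries and from 2393 to 2484 over the shSYK libraries, so the groups overlapped, and that of complex IV from 1106 to 1450 and from 1398 to 1516. Summed complex III FPKM was 593 to 728 in nc and 731 to 760 in shSYK libraries. The nc libraries of PC-9 spread more widely than its shSYK libraries in each of the 4 complexes.

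COX7B had the smallest unadjusted p of the respiratory genes in PC-9, with 36.8, 35.2 and 39.1 FPKM in nc and 46.2, 53.5 and 50.01 in shSYK libraries. The groups did not overlap (log2 change 0.42, SE 0.11, adjusted p = 0.107 by limma). COX6C, another small complex IV subunit, was 38.4, 54.6 and 54.3 in nc and 66.2, 74.1 and 61.1 in shSYK libraries, without overlap (0.46, SE 0.16, adjusted p = 0.234 by limma). NDUFB3 was 28.1, 35.6 and 29.7 in nc and 43.9, 49.0 and 34.9 in shSYK libraries of PC-9. Its groups overlapped, with a log2 change of 0.43 (adjusted p = 0.238 by limma). Without nc replicate 1, the log2 changes of COX7B, COX6C and NDUFB3 were 0.42, 0.29 and 0.36 (adjusted p = 0.061, 0.154 and 0.2003 by limma). The other genes at an unadjusted p under 0.05 were NDUFAF2, NDUFAF4, NDUFB5, SDHD, UQCRB, COX7B2 and COX7C, with log2 fold changes from 0.24 to 0.35.

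Called in both EBC-1 and HCC827 were 6 rises, COX7B, NDUFAF2, NDUFB3, NDUFS5, SDHAF3 and SDHD (30% of the EBC-1 rises and 66.7% of those in HCC827), and 4 falls, NDUFS7, NDUFS8, NDUFV1 and UQCRC1 (44.4% and 57.1%). No gene was called in opposite directions in these lines, and none was called in all 3 lines. The percentages above are shares of the respiratory genes called in a line, not of those tested, so they cannot be compared with shares of tested genes. On that base, the 6 rises and 4 falls stood among 74 respiratory genes tested in EBC-1 and 71 in HCC827. Over all 10691 genes tested in both lines, 8.64% (924 genes) rose in both and 8.52% (911 genes) fell in both. On the base of called genes, the 924 shared rises stood among 2876 rises in EBC-1 and 2066 in HCC827. The 911 shared falls stood among 2686 and 2488 falls. In HCC827 the calls of COX7B, NDUFS5, SDHD, NDUFV1 and UQCRC1 were lost in 10, 11, 6, 13 and 14 of 17 alternatives. That of NDUFS8 was lost there in 5 of 17 and that of NDUFS7 in 11 of 16. In EBC-1 the calls of the shared falls NDUFS7, NDUFS8, NDUFV1 and UQCRC1 were lost in 7, 13, 9 and 14 of 17. Of the shared rises in EBC-1, COX7B and NDUFS5 were lost in 5 of 17 each, NDUFB3 in 2, and SDHD, NDUFAF2 and SDHAF3 in 1 each. The GC content of the longest transcript was 57.9% to 60.8% for the shared falls and 35.9% to 48.5% for the shared rises.

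The shSYK effects of 13 genes named by rule were compared between lines in a limma fit of the 18 libraries, 39 differences in all. Of these, 1 passed the threshold, NDUFB4 between EBC-1 and HCC827. In that pair of lines it was 1 of 13 genes, while 21.8% of all 12672 genes passed. NDUFB4 had entered the set as the largest rise of complex I in EBC-1, so its difference is that of a gene picked as an extreme in 1 of the lines compared. NDUFB4 in HCC827 was 83.2, 76.4 and 81.9 FPKM in nc and 74.0, 80.8 and 78.5 in shSYK libraries, with overlapping groups and a log2 fold change of -0.049. The effect in EBC-1 exceeded it by 0.52 on the log2 scale (SE 0.14, adjusted p = 0.0137 by limma), and the difference was past the threshold in each alternative fit. In PC-9 the NDUFB4 groups overlapped as well (48.9 ± 7.95 and 53.5 ± 2.95 FPKM). For the other genes a difference between lines was not detected, which does not show that they respond alike.

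Complex II has 4 subunits. SDHA carries the flavin, SDHB the iron-sulphur clusters, and SDHC and SDHD anchor them in the membrane and bind ubiquinone. SDHD was 5.78, 6.33 and 6.84 FPKM in nc and 7.96, 8.83 and 9.14 in shSYK libraries of EBC-1, and 14.5, 17.0 and 14.3 in nc and 17.8, 19.0 and 19.2 in shSYK libraries of HCC827. In both lines the groups were apart, with log2 fold changes of 0.40 (SE 0.084, adjusted p = 0.00763 by limma) and 0.28 (SE 0.076, adjusted p = 0.0244 by limma). In PC-9 it was 11.9, 14.004 and 14.5 in nc and 17.1, 17.2 and 16.8 in shSYK libraries, without overlap (0.32, SE 0.10, adjusted p = 0.195 by limma), and without nc replicate 1 the change was 0.24 (adjusted p = 0.138 by limma). The EBC-1 and HCC827 calls were both lost after removal of the trends on length and GC content.

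SDHA, SDHB and SDHC did not pass the threshold in any line. SDHB was 22.5 ± 0.713 and 22.1 ± 1.06 FPKM in nc and shSYK cells of EBC-1 (log2 fold change -0.023), 30.4 ± 2.71 and 31.6 ± 2.17 in PC-9 (0.053), and 30.4 ± 1.17 and 27.6 ± 0.783 in HCC827 (-0.13, limma adjusted p = 0.0898). The log2 fold change of SDHC was -0.081, 0.065 and 0.016 in EBC-1, PC-9 and HCC827, with overlapping groups. SDHA was 4.91 ± 0.426 and 4.68 ± 0.07 in EBC-1, 33.6 ± 5.01 and 36.7 ± 2.85 in PC-9 and 32.1 ± 0.620 and 29.6 ± 1.84 in HCC827. Its EBC-1 libraries lay between 4.42 and 5.16 FPKM, while no library of the other lines was below 27.5, a gap between tables that were normalized separately. SDHA shares 21.7% of its exon bases with another gene on the same strand.

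Several complex IV genes have a widely expressed form and a paralog restricted to muscle, testis or other tissues. COX4I2 and COX6A2 had 0 reads in all 18 libraries, COX8C had at most 3 reads in a library, and COX6B2 had a mean of at most 0.881 FPKM in any group. For COX4I2 and COX6A2, the counts of 0 allow a level of up to 3 reads per library. The widely expressed forms COX4I1, COX6A1, COX6B1 and COX8A had mean nc levels of 79.3, 42.6, 88.8 and 245 FPKM in EBC-1 and of at least 57.6 FPKM each in PC-9 and HCC827. COX7A1, the form of heart and skeletal muscle, passed the filter in EBC-1 (1.53 ± 0.085 FPKM in nc and 1.72 ± 0.617 in shSYK) and not in PC-9 or HCC827, where its nc means were 0.172 and 0.393. UQCRHL, an intronless copy of UQCRH, was at 1.56, 4.93 and 4.72 FPKM in the nc cells of EBC-1, PC-9 and HCC827, and reads of these near-identical genes may be split between them.

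COX7B2, a paralog of COX7B known from testis, had 0 reads in all 12 libraries of EBC-1 and HCC827. In PC-9 it had 25.2, 24.3 and 29.0 FPKM in nc and 30.01, 35.8 and 32.7 in shSYK libraries, on 168 to 365 reads. The shSYK libraries were above the nc libraries, with a log2 fold change of 0.32 that missed the threshold (SE 0.12, adjusted p = 0.248 by limma), and of 0.29 without nc replicate 1 (adjusted p = 0.181 by limma). The nc mean of 26.2 FPKM stood beside 37.0 for COX7B in the same cells, so in PC-9 both forms were of the same order. NDUFA4L2 showed a like restriction, with 4.82, 0.687 and 0.061 FPKM in the nc cells of EBC-1, HCC827 and PC-9.

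**Figure D3:**
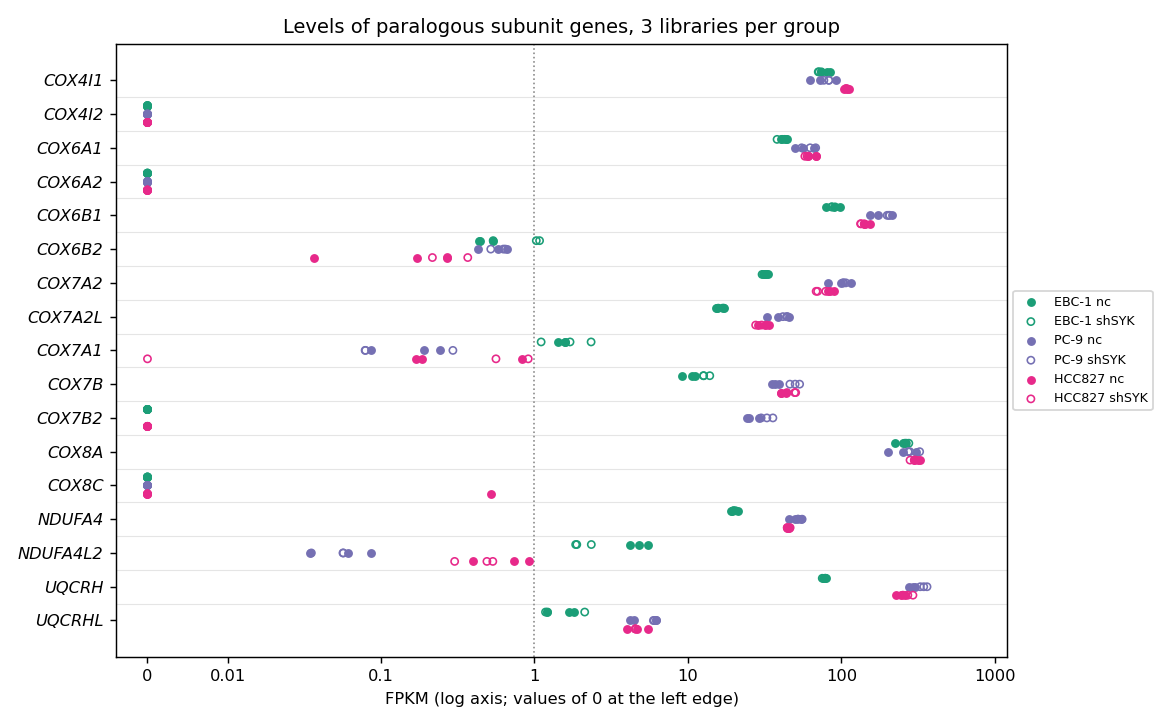
FPKM (horizontal log axis, values of 0 at the left edge) of 17 genes from 8 families of paralogous subunits in each library, with 3 nc (filled) and 3 shSYK (open) libraries per cell line (colours). COX7B2 lies between 24.3 and 35.8 FPKM in PC-9 and at 0 in the other lines, and NDUFA4L2 is above the dotted line at 1 FPKM in EBC-1 alone.

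GC content moved with the direction of change, most closely in EBC-1. In EBC-1, the 20 genes that rose had a median GC content of 41.6% (34.1 to 49.7) and the 9 that fell 58.3% (56.3 to 64.6), and over all genes tested the medians were 41.4% and 56.2%. Of 32 respiratory genes under 45% GC, 15 rose and none fell, with a median log2 fold change of 0.21 against 0.27 for all genes in that range. Of 17 genes at 55% or more, none rose and 9 fell, with a median of -0.23 against -0.22 for all genes. Across the 74 genes of EBC-1, log2 fold change and GC content had a Pearson r of -0.67, and r was -0.40 over 73 genes in PC-9 and -0.38 over 71 in HCC827, as a description, since these genes share the same 6 libraries.

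In HCC827 the respiratory genes under 45% GC had a median of 0.092 against 0.14 for all genes, and those at 55% or more -0.081 against -0.18. NDUFAF8, which rose in HCC827, has a GC content of 63.0% and stands apart from the other rises in that line. Of the 7 falls in HCC827, 5 were at 55% or more, while COX7A2 (42.5%) and NDUFAF1 (45.5%) were lower. In PC-9 the respiratory genes were above all genes in each range, with 0.15 against 0.082 under 45%, 0.13 against -0.003 between 45% and 55%, and 0.059 against -0.07 at 55% or more. After removal of the length and GC trends within each library, 17 genes were higher and 4 lower in EBC-1, while PC-9 had 1 and 0 and HCC827 had 4 and 6.

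**Figure D4:**
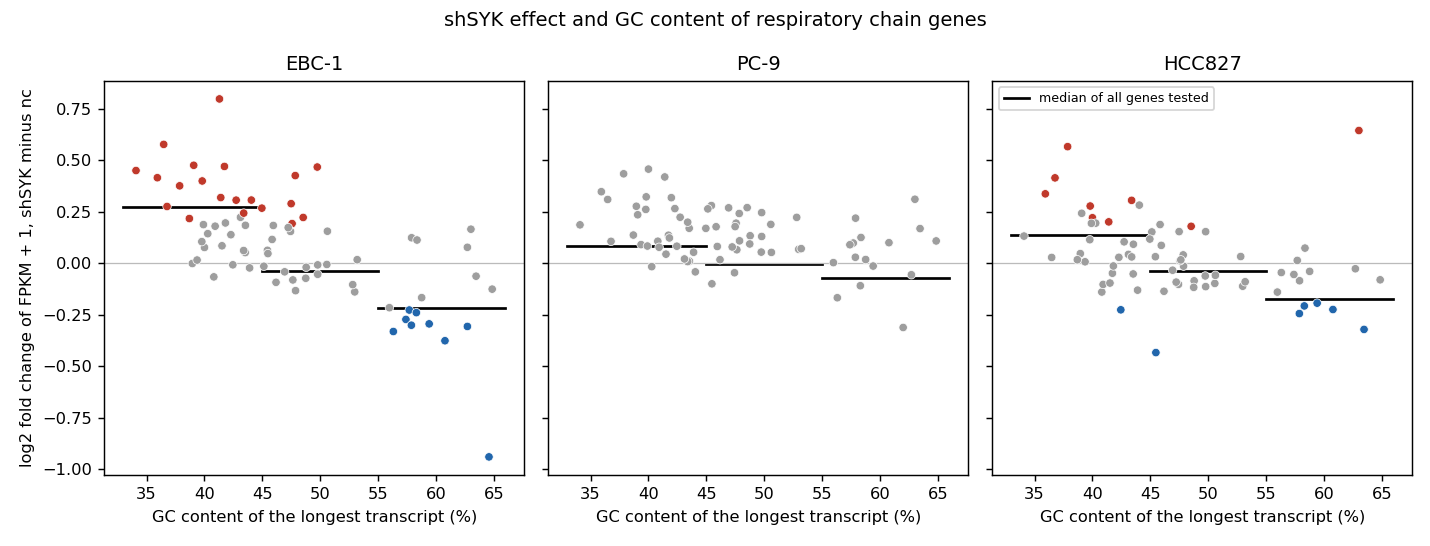
Log2 fold change of FPKM + 1 (shSYK minus nc, vertical axis) against the GC content of the longest transcript in percent (horizontal axis) for the tested respiratory chain genes of each line, with red and blue points past the threshold upward and downward. Black lines are medians of all genes tested under 45%, from 45% to 55% and at 55% or more; in EBC-1 all 9 blue points lie above 55% and all red points under 50%.

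Other genes of the same pathway were read from lists fixed by role. Of 18 nuclear genes of complex V, 8 rose and 3 fell in EBC-1. None rose and 1 fell in PC-9, and 3 rose and 1 fell in HCC827. The medians were 0.16, 0.18 and 0.12 in EBC-1, PC-9 and HCC827. Over all genes tested, 23.1% rose and 21.6% fell in EBC-1, 0.678% and 1.41% in PC-9, and 17.2% and 20.7% in HCC827. The complex V gene past the threshold downward in the 3 lines was ATP5J2 (now ATP5MF), a small subunit of the membrane part of ATP synthase. Its FPKM was 92.1, 84.8 and 91.3 in nc and 62.5, 68.3 and 61.2 in shSYK libraries of EBC-1, 67.1, 49.1 and 54.1 in nc and 24.8, 24.7 and 25.8 in shSYK of PC-9, and 96.3, 93.0 and 102 in nc and 32.9, 33.5 and 32.1 in shSYK of HCC827. No groups overlapped, and the log2 fold changes were -0.48, -1.13 and -1.53 (standard errors 0.07, 0.13 and 0.054, limma adjusted p = 0.00186, 0.013 and 1.77e-05). ATP5J2 shares 8.64% of its exon bases with the read-through gene ATP5MF-PTCD1, and its difference between lines was not tested. The PC-9 call for ATP5J2 was lost in 4 of 17 alternatives, and without nc replicate 1 its change there was -1.01 (adjusted p = 0.00241 by limma). The complex V median in PC-9 was 0.26 without nc replicate 1 and 0.12 without nc replicate 2.

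CYCS, which encodes cytochrome c, rose in EBC-1 from 31.8 ± 3.26 to 51.2 ± 0.642 FPKM (log2 fold change 0.67, limma adjusted p = 0.000865), and CYC1, the cytochrome c1 of complex III, fell in HCC827 from 198 ± 18.7 to 164 ± 1.19 (-0.26, limma adjusted p = 0.027), a call lost in 8 of 17 alternatives. Of the genes that assemble complexes III and IV, 4 of 21 rose and 3 fell in EBC-1. None of 22 passed the threshold in PC-9, and 2 of 21 rose and 3 fell in HCC827. In EBC-1 and HCC827 each of these shares was below that over all genes. COX17, a copper chaperone, was on opposite sides, with 0.23 in EBC-1 and -0.29 in HCC827. Its EBC-1 call was lost in 5 of 17 alternatives and its HCC827 call in 0, and the difference between lines was not tested. Among regulators of these genes, TFAM (11.8 ± 1.10 to 17.0 ± 0.744 FPKM) and TFB2M (6.84 ± 0.996 to 10.8 ± 1.09) rose in EBC-1. Both act in the transcription of mitochondrial DNA. GABPA (2.02 ± 0.437 to 3.22 ± 0.485) also rose in EBC-1, and MYC fell there from 188 ± 21.2 to 122 ± 11.9. In HCC827 ESRRA, PPRC1 and POLRMT fell and TFB1M rose, and of 11 regulators tested in PC-9 none passed. Of 12 regulators tested in each of EBC-1 and HCC827, 3 rose and 1 fell in EBC-1, and 1 rose and 3 fell in HCC827. These counts were near or below the shares over all genes. The call of GABPA was lost in 8 of 16 alternatives, those of ESRRA and TFB1M in 11 and 7 of 17, and those of TFAM and POLRMT in 1 each.

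The mitochondrially encoded subunits stood the other way in EBC-1. Of 13 genes, 12 fell and none rose, with a median log2 fold change of -0.50 beside 0.081 for the nuclear genes. In PC-9 1 of 13 fell (median -0.28) and in HCC827 2 of 13 (median -0.054). Over all genes tested, 21.6%, 1.41% and 20.7% fell in EBC-1, PC-9 and HCC827. MT-CYB, the mitochondrial subunit of complex III, went from 762 ± 26.7 to 402 ± 4.76 FPKM in EBC-1, and MT-CO3 of complex IV from 2177 ± 85.3 to 1210 ± 34.5. MT-CO3 was past the threshold downward in each line, with log2 fold changes of -0.85, -0.66 and -0.50 in EBC-1, PC-9 and HCC827, and the call was lost in 6 of 17 alternatives in PC-9 and 4 of 17 in HCC827. Without nc replicate 1, MT-CO3 changed by -0.69 in PC-9 (adjusted p = 0.017 by limma) and the median of the mitochondrial genes was -0.42. Without nc replicate 2, that median in PC-9 was -0.20. The falls in EBC-1 numbered 9 after rescaling to an equal sum, 5 with quantile normalization and 10 with limma-voom, with no gene higher. In HCC827 the median was 0.0072, 0.05 and 0.016 under these scalings. Reads on mitochondrial genes made up 2.23% to 2.51% of the reads in nc and 1.89% to 1.93% in shSYK libraries of EBC-1, and fewer mitochondrial transcripts per cell and more of other RNA cannot be told apart in these values.

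**Figure D5:**
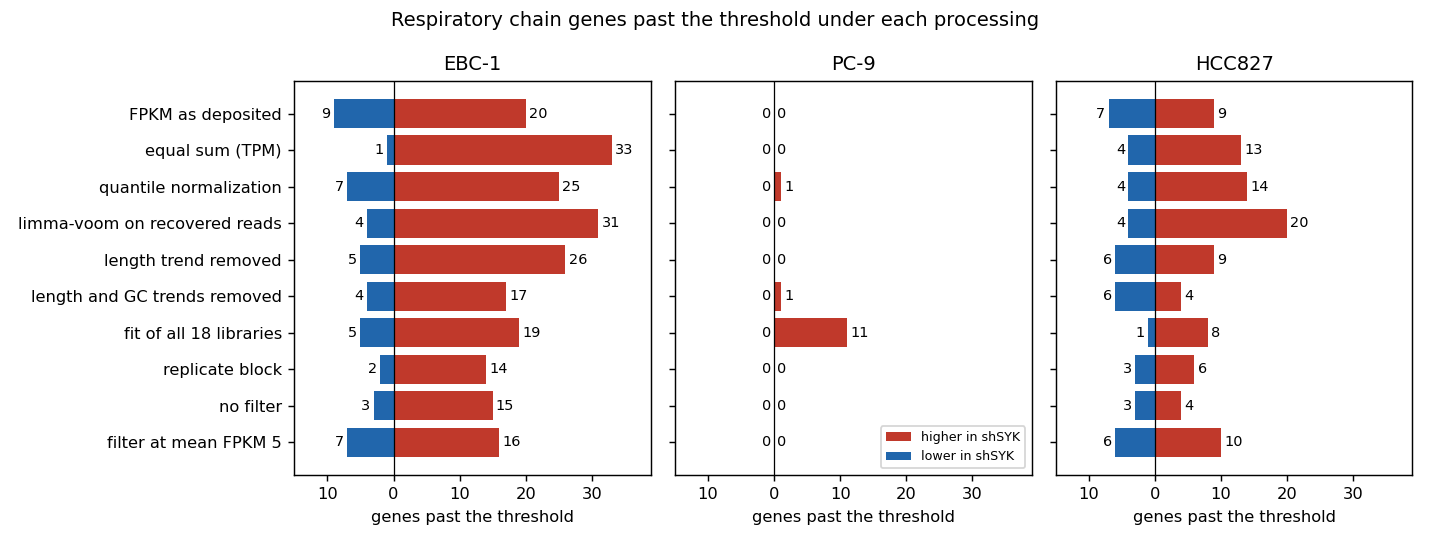
Number of respiratory chain genes past the adjusted p threshold (horizontal axis), higher in shSYK to the right and lower to the left, under each processing of the data (rows) in the 3 cell lines. In EBC-1 the main values are 20 and 9, and equal-sum scaling gives 33 and 1; in PC-9 the fit of all 18 libraries gives 11 and 0.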

How the data were processed

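RNA of 18 libraries (3 cell lines, nc and shSYK, 3 libraries per group) was extracted with TRIzol and sequenced on an Illumina HiSeq. The deposited values are FPKM per gene, made by the authors in 1 table per line, with CASAVA and HISAT2 named in the submitters' processing notes and hg38 as the genome; the counting program, its strand setting, the annotation release and the FPKM denominator are not given in the sources used here. FPKM weights reads by a fixed gene length and a library total, so a shift in that total moves all genes together.

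From these, log2(FPKM + 1) was tested with limma 3.58.1 (R 4.3.3, variance trend) per line, using genes that averaged 1 FPKM or more and with Benjamini-Hochberg adjustment over all of them at 0.05. Reads were recovered from FPKM and length for limma-voom and for depth (7920099 to 15729103 reads per library). Summaries used Python 3.11.15. Alternatives tried were another pseudocount (0.1), a filter at 5 or none, equal-sum (TPM) and quantile scaling, removal of trends on length or on length and GC content (lowess span 0.3), limma without its variance trend, 1 fit over all 18 libraries, a replicate block and each library left out. Levels on canonical transcript lengths were added after seeing the data. Scripts were tested on simulated data.

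The genes and lists were chosen with earlier results of these data known. Named by rule were SYK, the largest rise and fall per line and complex among changed genes averaging 5 FPKM or more, genes changed alike in 3 lines, the complex II subunits, paralogous pairs and the highest and lowest gene of each complex; all others named were chosen after their values were seen. Genes matched on length and level were replaced by all genes in the same span.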

Additional observations from a re-analysis of the deposited data

Results flagged for a closer look

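NDUFB4, an accessory subunit of complex I, responded differently to shSYK in EBC-1 and HCC827. The log2 fold change was 0.47 in EBC-1 and -0.049 in HCC827, a difference of 0.519 (standard error 0.14, limma adjusted p = 0.0137 in a fit of all 18 libraries with an interaction term). It was the 1 that passed of 39 differences over all pairs of lines. Between EBC-1 and HCC827 it was 1 of 13 genes, while 21.8% of all genes passed. NDUFB4 was in the set because it had the largest rise of complex I in EBC-1, so it was picked as an extreme in 1 of the lines compared.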

How the results depend on the processing

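Of 1154 values recomputed for single genes, 877 kept their direction and side of the threshold, 229 lost and 14 gained a call, and 34 turned sign. Calls that held in every alternative run were 6 of 20 rises and 1 of 9 falls in EBC-1 and 3 of 9 and 1 of 7 in HCC827. The cause was not tested for any change given here. Read depth, from 7920099 reads per library, limits genes such as NDUFV2.

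Genes higher in EBC-1 (20) became 33 with equal-sum scaling and 31 with limma-voom, and 13 to 19 with a library left out (13 without shSYK replicate 1 or 3). Genes lower in EBC-1 (9) became 3 without a filter, 1 with equal-sum scaling, 4 with limma-voom, 5 with the length trend removed, 4 with length and GC trends removed, 5 in the fit of all 18 libraries, and 1 to 10 with a library left out (1 without nc replicate 1, 2 without shSYK replicate 3, 3 without nc replicate 3 or shSYK replicate 1, 5 without shSYK replicate 2). Genes higher in HCC827 (9) became 4 without a filter, 14 with quantile and 20 with limma-voom scaling, 4 with length and GC trends removed, and 4 to 11 with a library left out (4 without nc replicate 1 or shSYK replicate 2 or 3, 5 without nc replicate 3). Genes lower in HCC827 (7) became 3 without a filter, 4 with equal-sum, quantile or limma-voom scaling, 4 without the variance trend, 1 in the fit of all 18 libraries, and 2 to 6 with a library left out (2 without nc replicate 1 or shSYK replicate 3, 3 without nc replicate 3 or shSYK replicate 2, 4 without shSYK replicate 1). Genes higher in PC-9 (0) became 1 with quantile scaling, 1 with length and GC trends removed, 11 in the fit of all 18 libraries, and 0 to 1 with a library left out, the 1 without nc replicate 1.

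With the replicate block, 14 genes were higher and 2 lower in EBC-1, 0 and 0 in PC-9, and 6 and 3 in HCC827. Whether equal replicate numbers pair the libraries is not stated in the labels. Deviations of same-numbered libraries correlated at 0.034, -0.16 and -0.22 in EBC-1, -0.053, 0.33 and -0.12 in PC-9 and 0.0017, 0.063 and 0.024 in HCC827. Not every library correlated best with its own number. Deviations from a mean of 3 libraries offset one another, so these values cannot decide whether the libraries were paired.

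Medians in EBC-1 under equal-sum, quantile and limma-voom scaling were 0.21, 0.12 and 0.19 for all respiratory genes, 0.24, 0.16 and 0.21 for complex I, 0.30, 0.26 and 0.27 for complex III and 0.13, 0.079 and 0.097 for complex IV. For complex II they were 0.078 (equal-sum), 0.044 (limma-voom) and 0.19 with a filter at 5. With length and GC trends removed they were 0.052 for complex I, 0.096 for complex III and -0.10 for complex IV, which was 0.076 with the length trend alone removed. With a library left out the medians ran over 0.059 to 0.11 for all genes, 0.10 to 0.16 for complex I, 0.090 to 0.20 for complex III and -0.014 to 0.037 for complex IV. Medians in HCC827 under equal-sum and limma-voom scaling were 0.071 and 0.077 for all respiratory genes and 0.057 and 0.066 for complex I. Under equal-sum, quantile and limma-voom scaling they were 0.0085, -0.0018 and 0.018 for complex II, 0.09, 0.094 and 0.097 for complex III and 0.027, 0.054 and 0.036 for complex IV, which ran over -0.060 to 0.0062 with a library left out.

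SYK in PC-9 missed the threshold without shSYK replicate 1 (log2 fold changes -1.35 to -1.18 with a library left out) and had no value under the filter at 5, since its mean FPKM is lower. The count of differences between lines (1) became 4 with equal-sum, 2 with quantile and 4 with limma-voom scaling, 2 with the length trend and 3 with both trends removed.

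Log2 fold changes that turned sign in EBC-1 with both trends removed were COX6C -0.13, UQCRC1 0.0402, NDUFC1 0.034, NDUFA5 -0.053, NDUFA2 0.086 and UQCRC2 -0.093. In the same line COX7A2 became 0.12, 0.047, 0.082 and 0.086 and SDHB 0.10, 0.015, 0.064 and 0.052 under equal-sum, quantile and limma-voom scaling and without the length trend, SDHA 0.054 and 0.023 under equal-sum and limma-voom scaling, and SDHC 0.016 under equal-sum scaling. NDUFB4 in HCC827 became 0.012, 0.026 and 0.022 under the 3 scalings, and SDHC -0.037 without the length trend and -0.057 without both. With a library left out, ranges that crossed 0 were, in EBC-1, -0.036 to 0.024 for COX7A2 and -0.060 to 0.0022 for SDHB, in PC-9 -0.047 to 0.20 for COX7A2, -0.020 to 0.25 for NDUFS7, -0.18 to 0.26 for NDUFS8, -0.0070 to 0.12 for SDHB and -0.26 to 0.067 for UQCRC1, and in HCC827 -0.018 to 0.053 for SDHC.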
